A study of Arabidopsis thaliana with 12 samples.

Results

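Seedlings of the mutant xrn3-8 were set against wild-type Col-0 seedlings of Arabidopsis thaliana after 60 min with cordycepin, a drug given to stop transcription. The comparison takes every array of both groups at that time, which is 6 of the 12 arrays of the series, and it covers 22746 probe sets. The xrn3-8 group had 3 arrays of mutant seedlings given 150 mg/l cordycepin, and the Col-0 group had 3 arrays of wild-type seedlings given the same dose. Both were grown on MS plates in long days and harvested at 14 days, and both genotypes were also collected before the drug (0 min), with 3 arrays each. No group was kept for 60 min without cordycepin, so drug, time and handling cannot be told apart. The labels give the allele by its name alone. They name 3 biological replicates for each group, but nothing in them says that these were grown apart. The p-values therefore measure the spread between these samples, whose independence is not described.

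XRN3 is a nuclear exoribonuclease that degrades RNA from its 5′ end. It is related to yeast Rat1 and is known for removing the RNA left behind after cleavage at the poly(A) site, which helps RNA polymerase II to terminate. Cordycepin is an adenosine analogue that lacks the 3′ hydroxyl group and so ends the chain into which it is built. In plants it is used to block new transcription so that the loss of existing RNA can be followed.

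The values are log2 signals, 1 for each probe set and array, which the authors had brought to nearly the same distribution on every array. The lower quartile was 3.05 to 3.10 on the 6 arrays at 60 min, and signals near or below it are close to the background of the array. Correlations between arrays of 1 group at 60 min were 0.995 to 0.997 in xrn3-8 and 0.996 to 0.997 in Col-0. The number of arrays limits the precision. The signal of XRN3 itself was not analysed here, as no probe set carried that name, and the genotype rests on the labels. Leaf and root RNA were both present on the 6 arrays. Chlorophyll-binding LHCB4.1 was at 12.43 to 12.48, and the root beta-glucosidase PYK10 was at 10.73 to 11.37.

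After cordycepin, 7322 of 22746 probe sets (32.2%) differed between xrn3-8 and Col-0 at an adjusted p under 0.05 (limma, Benjamini-Hochberg over all probe sets). Of these, 3771 were higher in xrn3-8 (16.6% of all tested) and 3551 were lower (15.6%). Most differences were small. At least 2-fold differences numbered 338 among the higher probe sets (1.49%) and 381 among the lower ones (1.68%), and the median over all probe sets was 0.02. The arrays of both groups did not overlap for 9177 probe sets (40.3%). Centring the arrays on the Bacillus subtilis control probe sets put 33.3% of the calls on the higher side, against 51.5% as deposited. Centring on housekeeping genes put 60.8% there. The call depended on signal: 4.41% of the 4557 dimmest probe sets were called, against 47.6% of the 4548 brightest ones.

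The 10 largest falls in xrn3-8 were taken from called probe sets paired with exactly 1 gene whose groups did not overlap. They included an extensin-like gene, a berberine bridge enzyme-like oxidase, an osmotin-like gene and 2 peroxidases. AT1G26250, a proline-rich extensin-like gene, had log2 signals of 2.84, 3.11 and 2.88 in xrn3-8 seedlings after cordycepin, against 7.26, 7.82 and 7.34 in Col-0 seedlings. The difference was -4.53 (SE 0.12, adjusted p = 4.40e-13, limma). All 3 mutant arrays lay near the background and all 3 wild-type arrays lay far above it. In a whole seedling, fewer cells of a type and less RNA per cell cannot be told apart.

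AT1G26390, a berberine bridge enzyme-like oxidase, had 3.48, 2.91 and 3.33 in xrn3-8 and 6.67, 6.85 and 7.03 in Col-0, a difference of -3.61 (SE 0.16, adjusted p = 1.00e-10). The osmotin-like OSM34, a thaumatin family protein of salt and pathogen responses, had 7.11, 7.20 and 7.46 in xrn3-8 and 10.55, 10.64 and 10.90 in Col-0. OSM34 was thus well above background in both genotypes and still differed by -3.44 (SE 0.14, adjusted p = 5.50e-11). AT3G13610 encodes feruloyl-CoA 6'-hydroxylase (F6'H1), which makes the precursor of the coumarin scopoletin. It had 6.83, 6.39 and 6.36 in xrn3-8 and 9.68, 9.60 and 9.84 in Col-0, a difference of -3.18 (SE 0.13, adjusted p = 5.95e-11). By the rule of choice, no xrn3-8 array reached the level of any Col-0 array for these genes.

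Both peroxidases among the 10 largest falls are of class III, enzymes that oxidise phenolic compounds in the cell wall. AT3G03670 had 3.08, 2.98 and 2.76 in xrn3-8 against 5.88, 6.10 and 6.19 in Col-0, a difference of -3.12 (SE 0.13, adjusted p = 5.95e-11). AT5G19890 had 4.84, 4.50 and 5.22 in xrn3-8 against 7.72, 7.83 and 7.93 in Col-0, a difference of -2.97 (SE 0.16, adjusted p = 1.01e-09). The other falls among the top 10 were AT2G15220, a plant basic secretory protein (-3.46), AT5G22555 (-3.33), the methyltransferase AT5G37990 (-3.15) and the germin-like AT5G38910 (-3.09). The probe set of AT2G15220 is of a type (_s_at) that can match several transcripts. The wild-type spread was widest for AT5G38910, at 5.86, 6.51 and 6.91, against 3.39, 3.55 and 3.08 in xrn3-8, and its SE was 0.25.

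Among genes with a symbol, the next falls included those of chitinases and a defensin. CHI, a chitinase, had 5.09, 5.42 and 5.33 in xrn3-8 and 8.08, 8.13 and 8.32 in Col-0 (difference -2.90, SE 0.12, adjusted p = 5.95e-11). ChiC, a chitinase of another class, differed by -1.81. The defensin PDF1.2, a marker of the jasmonate and ethylene response, had 4.26, 4.03 and 4.22 in xrn3-8 and 5.93, 5.73 and 6.17 in Col-0, a difference of -1.77 (SE 0.11, adjusted p = 5.08e-09). The lignin-pathway type methyltransferase CCOAMT fell by 2.97 and isocitrate lyase ICL, an enzyme of the glyoxylate cycle, fell by 2.79. Smaller falls were those of cwINV6, a member of the cell wall invertase family (-2.22), Prx37 (-2.09), the glutathione transferase GSTU22 (-1.94), the cytochrome P450 CYP71B6 (-1.63) and the subtilase SBT3.5 (-1.50).

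The largest rise among named genes was that of THI2.2, which encodes a thionin, a small antimicrobial peptide. THI2.2 had 8.87, 8.76 and 8.94 in xrn3-8 after cordycepin and 6.01, 6.09 and 5.82 in Col-0, a difference of 2.88 (SE 0.11, adjusted p = 2.71e-11). QQS, an orphan gene that affects the split of carbon and nitrogen between starch and protein, had 8.84, 8.89 and 8.88 in xrn3-8 and 6.03, 6.06 and 6.15 in Col-0. The QQS difference was 2.79 (SE 0.08, adjusted p = 9.59e-13). Both genes were well above background in Col-0, and the arrays of each genotype lay close together.

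SAG29, the sugar transporter SWEET15, had 6.22, 5.89 and 6.32 in xrn3-8 and 3.84, 3.83 and 3.66 in Col-0 (difference 2.37, SE 0.15, adjusted p = 8.09e-09). SBT3.3, a subtilase linked to defence priming, had 6.58, 6.38 and 6.52 in xrn3-8 and 4.43, 4.07 and 4.02 in Col-0 (difference 2.32, SE 0.11, adjusted p = 1.83e-10). SBT3.3 thus rose while its relative SBT3.5 fell. AT3G21670, of the nitrate transporter family, had 8.95, 8.75 and 9.03 in xrn3-8 and 6.81, 6.54 and 6.70 in Col-0 (difference 2.23, SE 0.10, adjusted p = 7.46e-11). The other rises among the top 10 were AT2G41445 (2.44), AT1G65490 (2.40), AT3G13760 (2.37), the mTERF family gene AT2G34620 (2.21) and AT5G16030 (2.13). The Col-0 signals of AT2G41445 were 3.25, 3.01 and 2.77, at the background, against 5.22, 5.72 and 5.42 in xrn3-8.

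**Figure D1:**
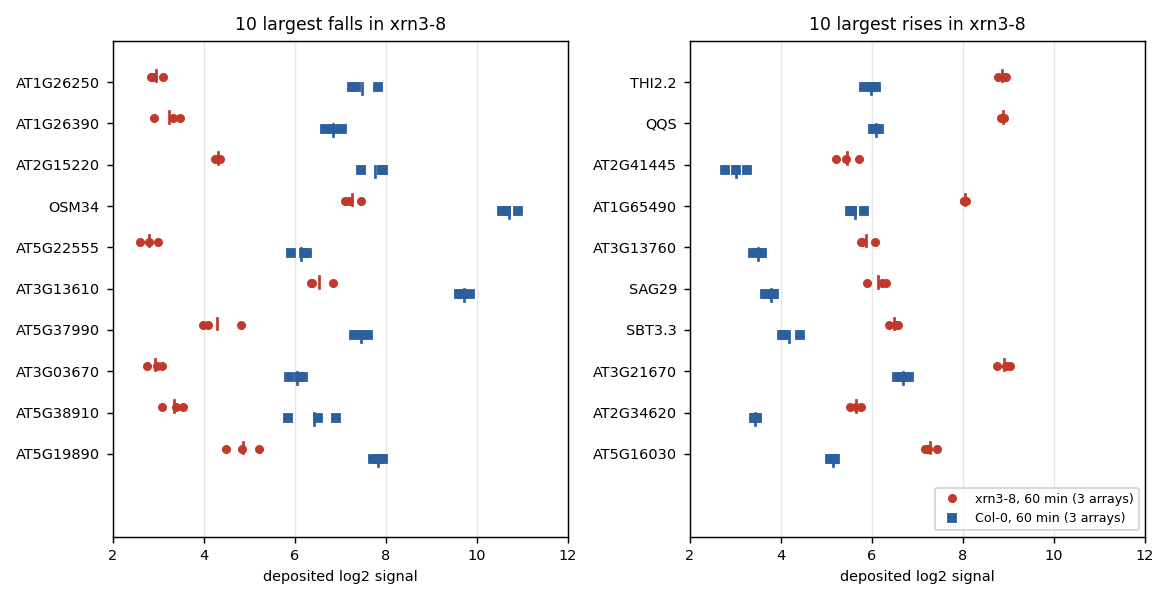
Deposited log2 signals at 60 min of the 10 genes with the largest falls (left panel) and the 10 with the largest rises (right panel) in xrn3-8, among probe sets paired with exactly 1 gene. Circles are the 3 xrn3-8 arrays, squares the 3 Col-0 arrays, and short bars their means. The 20 genes were chosen among those in which the circles and squares of a row do not overlap.

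Next among genes with a symbol, the tetraspanin TET9 rose by 2.06, with 6.67, 6.55 and 6.42 in xrn3-8 and 4.85, 4.30 and 4.32 in Col-0. The P450 CYP71B26 rose by 2.0, the glutathione transferases GSTU16 by 1.91 and ATGSTF13 by 1.58, and the defensin PDF2.1 by 1.88. AOR, a chloroplast alkenal reductase, had 9.54, 9.53 and 9.40 in xrn3-8 and 8.07, 7.85 and 7.99 in Col-0, a difference of 1.52 (SE 0.08, adjusted p = 1.13e-09). The auxin glucosyltransferase UGT74D1 (1.41), KICP-02 (1.40), the F-box protein SKP2A (1.35) and CRR42 (1.27) followed. CRR42 takes part in building the chloroplast NDH complex, which cycles electrons around photosystem I.

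The brightest 5% of probe sets had a mean of at least 9.43 at 60 min. Among them, 174 probe sets of 1 named gene were called without overlap, 105 higher and 69 lower in xrn3-8. At any signal, 3716 probe sets of 1 gene were called without overlap. The 4548 brightest probe sets of any kind had 1182 rises and 985 falls, a called share of 47.6%. Whether the count of 174 or its split is unusual for bright probe sets was not tested. In the brightest 5% the array measures differences with the least influence of background. The largest rise was that of AT1G15010, with 11.12, 11.09 and 11.17 in xrn3-8 and 9.78, 9.67 and 9.47 in Col-0 (difference 1.49, SE 0.09, adjusted p = 3.48e-09). AT5G38980 (1.26), the arabinogalactan protein AT4G16980 (1.23), the thylakoid calcium sensor CaS (1.15), AT5G24490 (1.14) and AT1G09310 (1.04) came next. A further probe set of AT4G16980 differed by 0.23 and was not called (adjusted p = 0.0776). The largest fall was that of AT3G22240, with 8.74, 8.83 and 8.73 in xrn3-8 and 10.45, 10.50 and 10.54 in Col-0 (difference -1.73, SE 0.08, adjusted p = 1.93e-10). The defensin-like AT4G22212 (-1.10), the jacalin lectin JAL34 (-1.03), the peroxidase AT5G64120 (-0.93), ECS1 (-0.90) and AT2G18690 (-0.83) followed.

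Of the lists with 5 or more measured genes, the class III peroxidases had the largest share of lower genes. Of 31 listed genes 19 were measured, and of these 17 were lower in xrn3-8 after cordycepin, 2 were not called and 0 were higher. The list is a part of the family, without AT3G03670 and AT5G19890, and was chosen with earlier results of these data known. Over all 13356 named genes, with 1 probe set each, 13.9% were lower and 15.1% were higher. The median difference of the 19 genes was -0.96, against 0.02 over all named genes, and the 17 falls ran from -2.27 to -0.62. At 0 min 14 of the 19 were lower (15.8% of all named genes), with a median of -0.68. The count of 17 held under each scaling tried.

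AT5G06730 had the largest fall of the list, with 3.56, 3.70 and 3.65 in xrn3-8 and 5.80, 6.01 and 5.91 in Col-0 (difference -2.27, SE 0.12, adjusted p = 5.32e-10). Prx37 had 5.16, 4.57 and 5.19 in xrn3-8 and 7.19, 7.06 and 6.95 in Col-0 (difference -2.09, SE 0.14, adjusted p = 7.86e-09). AT3G01190 (-1.60), AT3G21770 (-1.54), AT5G64100 (-1.44) and AT4G30170 (-1.32) also fell by more than 2-fold. The brightest were AT5G64100, with 8.61, 8.37 and 8.61 in xrn3-8 against 10.12, 9.83 and 9.97 in Col-0, and AT5G64120, with 9.29, 9.09 and 9.20 against 10.04, 10.03 and 10.30. In xrn3-8 the mean of 2 of the 17, AT4G08780 and AT1G14550, was below the lower quartile, so their differences of -1.15 and -0.86 rest on a signal at background in the mutant. The genes not called were AT1G30870 (-0.19, adjusted p = 0.318) and AT5G19880 (-0.06, adjusted p = 0.655). The genotype difference of AT5G06730, Prx37, AT3G21770, AT4G30170 and AT4G36430 was further below 0 after cordycepin than before it, with the interaction called (below 0 for 2.93% of all named genes).

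Many class III peroxidases are expressed in roots, so markers of root tissue are given beside them. PYK10, which was the 1 measured gene of 7 root markers, had 10.98, 10.73 and 10.84 in xrn3-8 and 11.37, 11.29 and 11.22 in Col-0, a difference of -0.44 (SE 0.09, adjusted p = 0.00112). Of 7 root hair markers 3 were measured: the expansins EXPA7 (-0.26, adjusted p = 0.0769) and EXPA18 (0.08, adjusted p = 0.558) were not called, and the peroxidase AT4G26010, which is also on the peroxidase list, fell by 0.67. The mean log2 signal of PYK10, EXPA7 and EXPA18 was 5.93 to 6.09 on the xrn3-8 arrays and 6.14 to 6.29 on the Col-0 arrays. At 0 min PYK10 differed by 0.07, and 14 peroxidases of the list were lower. The part of root tissue in the peroxidase result was not tested.

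**Figure D2:**
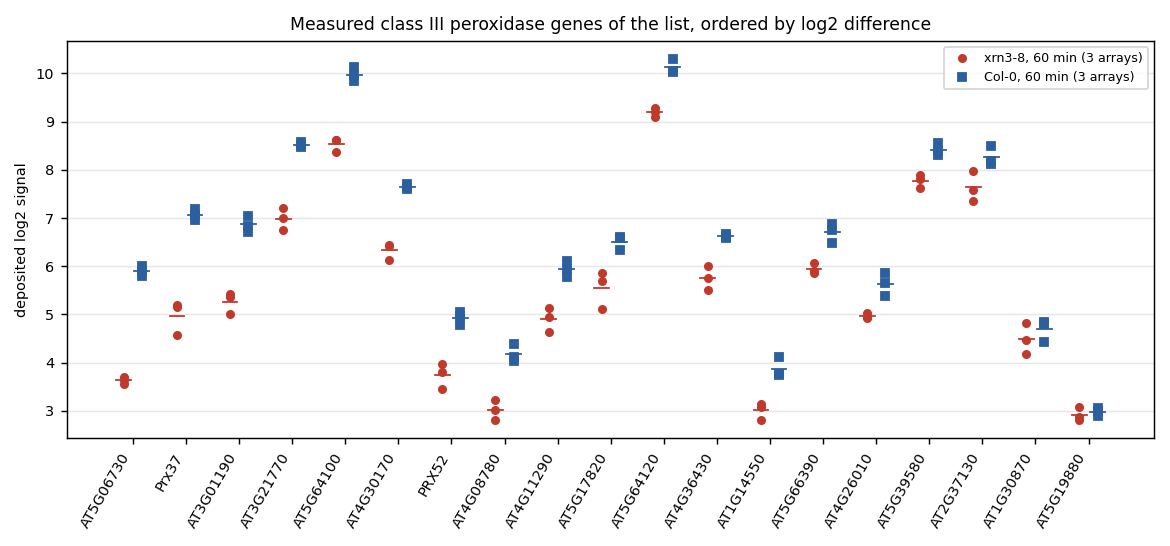
Deposited log2 signals at 60 min of the 19 measured class III peroxidase genes of the list, ordered from the largest fall at the left. Circles are the 3 xrn3-8 arrays, squares the 3 Col-0 arrays and bars the means; the xrn3-8 mean lies below the Col-0 mean in all 19 genes, and the arrays of AT1G30870 and AT5G19880, at the right end, overlap.

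Berberine bridge enzyme-like oxidases, which include enzymes that oxidise cell wall sugars and indole compounds, had 8 lower and 1 higher of 22 measured genes. This was a called share of 40.9%, against 29.1% of all named genes. Both means of 10 of the 22 were below the lower quartile, and the median over the 22 was -0.02. The largest falls were those of neighbours on chromosome 1. AT1G26380 had 4.56, 4.30 and 4.24 in xrn3-8 and 6.98, 7.17 and 7.14 in Col-0 (difference -2.73, SE 0.15, adjusted p = 9.18e-10). AT1G26410 differed by -2.44 and AT1G26420 by -2.28. AT1G26400, which lies between AT1G26390 and AT1G26410, was at background in both genotypes, with means of 2.32 in xrn3-8 and 2.29 in Col-0. Elsewhere, AT5G44380 (-1.70) and AT1G30700 (-1.64) fell by more than 2-fold, and AT5G44440 was the one called higher (0.36). AT5G44440 was near background, with means of 2.94 in xrn3-8 and 2.58 in Col-0, and the arrays of both genotypes overlapped. Its call was lost with Bacillus subtilis or hybridization control centring and without replicate 1 or 2 of Col-0 at 60 min.

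Extensins, the hydroxyproline-rich proteins that cross-link in the wall, had 4 lower and 1 higher of 9 measured genes, with a median of -0.18. Their called share was 55.6%, against 29.1% of all named genes. Without replicate 1 of xrn3-8 at 60 min, 3 were lower and 0 higher, and without probe sets shared between genes 2 were lower. After AT1G26250, the fall of its neighbour AT1G26240 was the next in size, with means of 3.16 in xrn3-8 and 3.86 in Col-0 (-0.70, SE 0.13, adjusted p = 4.06e-04). AT1G23720 fell by 0.52, HRGP1 fell by 0.35, and AT4G08410 rose by 0.29. From AT1G26200 to AT1G26460, 17 of 28 protein-coding genes were measured, of which 7 were lower, 2 were higher and 8 were not called.

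Some other genes with at least 2-fold differences were adjacent. Of 204 such falls placed on the chromosomes, 19 (9.31%) lay in 9 runs of adjacent genes, and of 160 such rises 4 (2.5%) lay in 2 runs. Whether this is more than the order of genes gives by itself was not tested. The run of 3 on chromosome 1 held AT1G51830 (-1.57), AT1G51840 (-1.10) and AT1G51850 (-1.09). The peroxidases Prx37 and AT4G08780 are neighbours, as are AT5G38900 (-2.41) and the germin-like AT5G38910, and AT5G38020 (-2.43) and AT5G38030 (-1.28). The rises in runs were AT3G09405 (1.21) with AT3G09410 (1.94), and AT4G37550 (1.12) with AT4G37560 (1.09). Probe sets can share sequence within such families, and how far this counts here was not tested.

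Defence and antimicrobial genes went both ways, with 7 lower and 4 higher of 15 measured and a median of -0.21, against 13.9% lower and 15.1% higher over all named genes. The lower ones were OSM34, CHI, PDF1.2, SBT3.5, PDF2.5 (-0.78), PDF1.2b (-0.63) and WRKY53 (-0.49). Without probe sets of the types that can match several transcripts, 6 of 14 measured genes were lower. The higher ones were THI2.2, SBT3.3, PDF2.1 and LCR68, a defensin-like gene (0.28), whose call was lost under 10 alternatives, among them leaving out replicate 1 of Col-0 or replicate 2 or 3 of xrn3-8 at 60 min. The thionin THI2.1, a relative of THI2.2, was at background in both genotypes, with 2.88, 2.94 and 2.86 in xrn3-8 and 2.67, 2.85 and 2.95 in Col-0. LCR69, another defensin-like gene, stood at 11.37, 11.39 and 11.40 in xrn3-8 and 11.33, 11.39 and 11.35 in Col-0, and was not called.

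Of 9 measured genes of carbon starvation and senescence, 88.9% were called, against 29.1% of all named genes. Their median was 0.68, 2 were lower and 6 were higher. Beside QQS and SAG29, these were AKINBETA1, a subunit of the energy sensor SnRK1, and SAG101, a senescence-associated defence protein. AKINBETA1 had 7.21, 7.31 and 7.32 in xrn3-8 and 6.61, 6.57 and 6.55 in Col-0 (difference 0.70, SE 0.07, adjusted p = 1.24e-06), and SAG101 differed by 0.68. Of the enzymes that break down branched-chain amino acids, MCCA rose by 0.77 and IVD by 0.33, while their electron acceptor ETFQO was not called (0.18, adjusted p = 0.166). MCCA differed by 0.06 at 0 min, and its interaction was called (adjusted p = 0.00551). ICL and WRKY6 (-0.70) were the lower genes.

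Nuclear photosynthesis genes had 4 higher and 0 lower of 8 measured, all 8 above 0 and with a median of 0.16. Their called share was 50%, against 29.1% of all named genes. Only LHCB4.2 stayed called when the arrays were centred on the Bacillus subtilis controls or on the hybridization controls. LHCB4.2, a minor chlorophyll-binding protein of photosystem II, had 11.20, 11.21 and 11.47 in xrn3-8 and 10.67, 10.50 and 10.43 in Col-0 (difference 0.76, SE 0.10, adjusted p = 1.10e-05). Its relative LHCB4.1 was not called (0.02, adjusted p = 0.894). The Calvin cycle enzymes PRK (0.32) and SBPASE (0.32) and the rubisco activase RCA (0.22) were the other rises.

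Genes for the chloroplast NDH complex, a group chosen after the values of CRR42 and NdhS had been seen, had 5 higher and 0 lower of 8 measured. This was a called share of 62.5%, against 29.1% of all named genes. NdhS, a subunit that binds ferredoxin, had 8.58, 8.58 and 8.48 in xrn3-8 and 7.49, 7.44 and 7.43 in Col-0, a difference of 1.09. The pentatricopeptide repeat protein CRR21, which is needed for editing of a plastid transcript, differed by 1.11, CRR41 by 0.68 and NdhL by 0.52. CRR22, CRR28 and NdhN (-0.21, adjusted p = 0.102) were not called.

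Of the 69 measured genes of the plastid genome, 6 were higher and 1 was lower, a total share of 10.1% against 29.1% of all named genes, and the median was -0.05. The balance turned to 1 higher and 6 lower with Bacillus subtilis centring, and to 1 higher and 3 lower without replicate 3 of xrn3-8 at 60 min. The large rubisco subunit rbcL had 10.82, 11.01 and 10.94 in xrn3-8 and 9.93, 10.08 and 10.41 in Col-0 (difference 0.78, SE 0.12, adjusted p = 1.14e-04). The photosystem II protein psbC differed by -0.37, with 10.08, 10.16 and 10.18 in xrn3-8 and 10.37, 10.42 and 10.75 in Col-0. The total fell to 2 to 4 called genes under 9 of the alternatives, among them each omission of an array at 60 min other than replicate 1 of xrn3-8.

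Families of detoxification and secondary metabolism held members that moved in opposite directions. Of 24 cytochrome P450 genes, 7 were higher and 4 lower, against 15.1% higher and 13.9% lower over all named genes, and both means of 9 of the 24 were below the lower quartile. Of 11 measured CYP71B genes that lie close together on chromosome 3, 5 were higher, 2 were lower and 4 were not called. CYP71B6 and CYP71B29 (-0.99), the other lower ones, lie elsewhere. CYP71B26 had 6.48, 6.38 and 6.06 in xrn3-8 and 4.42, 4.03 and 4.46 in Col-0, a rise of 2.0. CYP71B37 had 2.99, 2.83 and 3.02 in xrn3-8 and 3.98, 4.27 and 4.19 in Col-0, a difference of -1.20 (SE 0.11, adjusted p = 2.83e-07), and was at background in the mutant.

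UDP-glycosyltransferases, which attach sugars to hormones and phenolics, had 10 higher and 5 lower of 47 measured, a share of 31.9% called against 29.1% of all named genes. The lower ones with the largest size were UGT76B1 (-1.45), which glucosylates defence regulators, and UGT72E2 (-1.41), which glucosylates monolignols. UGT84A3 (1.22) and UGT88A1 (1.08) rose by more than 2-fold beside UGT74D1. Glutathione transferases had 4 higher and 4 lower of 13, a share of 61.5% called. GSTU20 (1.20) and GSTU18 (0.82) stood with the higher ones and GSTU25 (-0.84) with the lower ones. Expansins and xyloglucan-modifying enzymes, which loosen the wall, had 6 higher and 5 lower of 27, a share of 40.7% called. XTH32 (1.05) and EXLA2 (1.0) were the largest rises and EXLB1 (-0.97) the largest fall. Tubulins had 3 higher and 2 lower of 7 measured (71.4% called), from -0.37 for TUB9 to 0.39 for TUB6. Under hybridization control centring 1 tubulin was called.

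**Figure D3:**
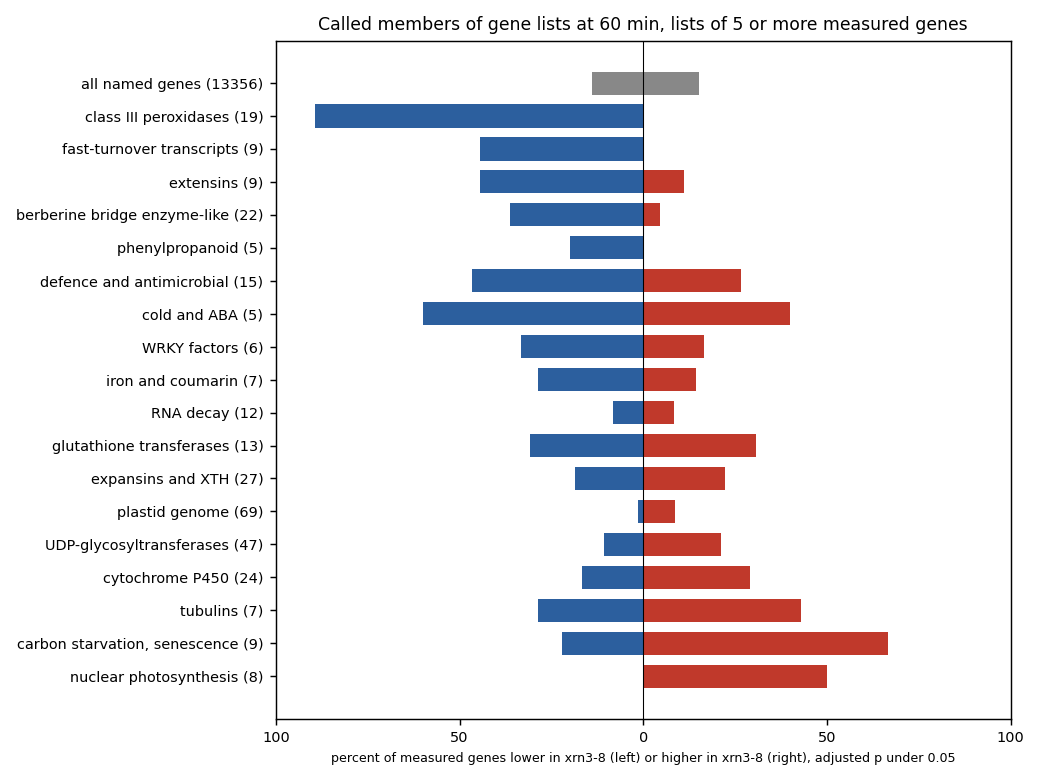
Percent of measured genes that were lower (left, blue) or higher (right, red) in xrn3-8 at 60 min, at an adjusted p under 0.05, for lists of 5 or more measured genes (number in brackets) and, in grey, for all 13356 named genes. The class III peroxidases reach 17 of 19 on the lower side, and the lists of defence, P450 and glutathione transferase genes extend to both sides.

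Of 12 measured RNA decay and exosome factors, 1 was higher, 1 was lower and 10 were not called, a called share of 16.7% against 29.1% of all named genes. The nonsense-mediated decay factor UPF3 had 6.16, 6.26 and 6.25 in xrn3-8 and 6.47, 6.58 and 6.38 in Col-0 (difference -0.25, SE 0.08, adjusted p = 0.0253). AT3G46960, the RNA helicase SKI2, was the higher one (0.37, adjusted p = 0.00944). Neither was called with hybridization control centring, and UPF3 was not called without replicate 1 or 2 of Col-0 or replicate 1 of xrn3-8 at 60 min. Of 4 measured genes on the list of exoribonucleases and of cleavage, polyadenylation and termination factors, 3 were called. FY (0.35), a polyadenylation factor, and AT5G60940, a cleavage stimulation factor subunit (0.62), were higher and AT4G17620 (-0.32) was lower. FY and AT4G17620 each lost the call under 3 alternatives, among them leaving out replicate 2 of Col-0 at 60 min.

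The polymerase subunit NRPD7, which acts in RNA silencing, had 3.69, 3.83 and 3.61 in xrn3-8 after cordycepin and 3.20, 2.92 and 2.80 in Col-0, a difference of 0.74 (SE 0.11, adjusted p = 4.78e-05). At 0 min it had 5.81, 5.98 and 5.81 in xrn3-8 and 3.16, 3.13 and 2.92 in Col-0. The genotype difference of NRPD7 was thus 2.80 before cordycepin, and the interaction was -2.06 (SE 0.15, adjusted p = 4.92e-07). The Col-0 signals of NRPD7 were near background at both times. SE, which helps to process microRNAs, was not called (-0.14).

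In the iron and coumarin list, 1 of 7 measured genes was higher and 2 were lower (42.9% called, against 29.1% of all named genes). Besides AT3G13610, AT1G28680, the coumarin synthase COSY, differed by -0.66. The iron-deficiency peptide gene AT1G47400 had 4.55, 4.16 and 4.15 in xrn3-8 and 3.94, 3.39 and 3.92 in Col-0, a difference of 0.54 after cordycepin, against 1.90 before it. The transcription factor BHLH101 was not called after cordycepin (0.23) and differed by 1.31 before it.

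Of 9 measured genes with fast-turnover transcripts, 4 were lower and 0 were higher (44.4% called, against 29.1% of all named genes). These were CML37 (-0.66), the zinc finger factor STZ (-0.60), WRKY53 and AT5G07580 (-0.31), an ethylene response factor. Without replicate 2 of Col-0 at 60 min 2 of them were called. In the cold and ABA list all 5 measured genes were called. COR15A (-0.69), COR47 (-0.28) and LTI30 (-0.25) were lower, and COR15B (0.44) and AT3G02480 (1.81) were higher. COR15A and COR15B, neighbouring copies that encode chloroplast cold-protection proteins, thus moved apart. Without replicate 3 of Col-0 at 60 min, or with hybridization control centring, 3 of the 5 were called.

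The remaining lists were short. Over all named genes 29.1% were called, 15.1% higher and 13.9% lower. Of 4 chaperones, the small heat shock proteins ATHSP22.0 (1.15) and AT1G54050 (1.20) were higher. Of 6 WRKY factors, WRKY47 (0.38) was higher and WRKY6 and WRKY53 were lower. WRKY47 lost the call without replicate 3 of xrn3-8 at 60 min, and WRKY53 without replicate 2 of either genotype at 60 min. In starch metabolism the water dikinase PWD differed by -0.38, 1 of 3 measured. In glucosinolate synthesis BCAT4 (0.39) and AT2G31790 (0.40) were higher and UGT74B1 (-0.65) was lower. With hybridization control centring both rises lost the call. The clock gene GI differed by -0.28, and its call was lost with housekeeping or hybridization control centring, with the 6 arrays at 60 min alone, and without replicate 3 of Col-0 or replicate 1 of xrn3-8 at 60 min. Of 5 phenylpropanoid and flavonoid genes, AT5MAT (-0.23, adjusted p = 0.0392) was called, and under 10 alternatives, among them leaving out single arrays, 0 genes of the list were called. The guard cell lineage markers SPCH and FMA were not called (-0.06 and 0.06).

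The difference after cordycepin was mostly one that was there before it. Of the 7322 probe sets, 4268 (58.3%) were also called in the same direction at 0 min, and of the 719 with at least 2-fold differences 665 (92.5%) were. Of all 22746 probe sets, 7264 (31.9%) were called at 0 min, 3256 higher and 4008 lower in xrn3-8. The change of the genotype difference between 60 and 0 min was tested as an interaction. Over all probe sets it was called for 1830 (8.05%), 1155 above 0 (5.08%) and 675 below 0 (2.97%). Its direction over all probe sets depended on the scaling. With the Bacillus subtilis controls, which shift each interaction by -0.16, 404 were above 0 and 1335 below, and with the housekeeping genes, which shift each by 0.11, 2465 were above 0 and 438 below. Single large interactions, described next, are well beyond these shifts.

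Of the 7322 probe sets called after cordycepin, 6081 had no called interaction, 256 had a larger difference after the drug, 144 had a smaller one, 182 were called in the opposite direction at 0 min, and 659 had a called interaction and no call at 0 min. In all, 2872 of the 7322 were not called at 0 min, and 2213 of these had no called interaction. The class of 659 held 419 higher and 240 lower probe sets, against 162 and 559 with Bacillus subtilis centring. These classes were chosen by the interaction, so the levels that follow describe them and carry no test. For the 419 higher probe sets, the level at 60 min minus that at 0 min had a median of -0.23 in xrn3-8 and -0.82 in Col-0. The signal went down with cordycepin in 64.9% of them in xrn3-8 and in 96.2% in Col-0. For the 240 lower probe sets, the median was -0.10 in xrn3-8 and 0.49 in Col-0. Over all 22746 probe sets the medians were 0.09 in xrn3-8 and 0.07 in Col-0, values that the normalization of the arrays holds near 0. The Bacillus subtilis controls were 0.54 higher at 60 min than at 0 min in xrn3-8 and 0.39 higher in Col-0. Their mean signal was low, at 4.24 in xrn3-8 and 4.15 in Col-0 at 60 min, and 3.70 and 3.76 at 0 min. How far background adds to this rise was not tested. Relative to these controls the medians over all probe sets were -0.45 in xrn3-8 and -0.32 in Col-0, and those of the 240 lower probe sets were -0.64 in xrn3-8 and 0.10 in Col-0.

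**Figure D4:**
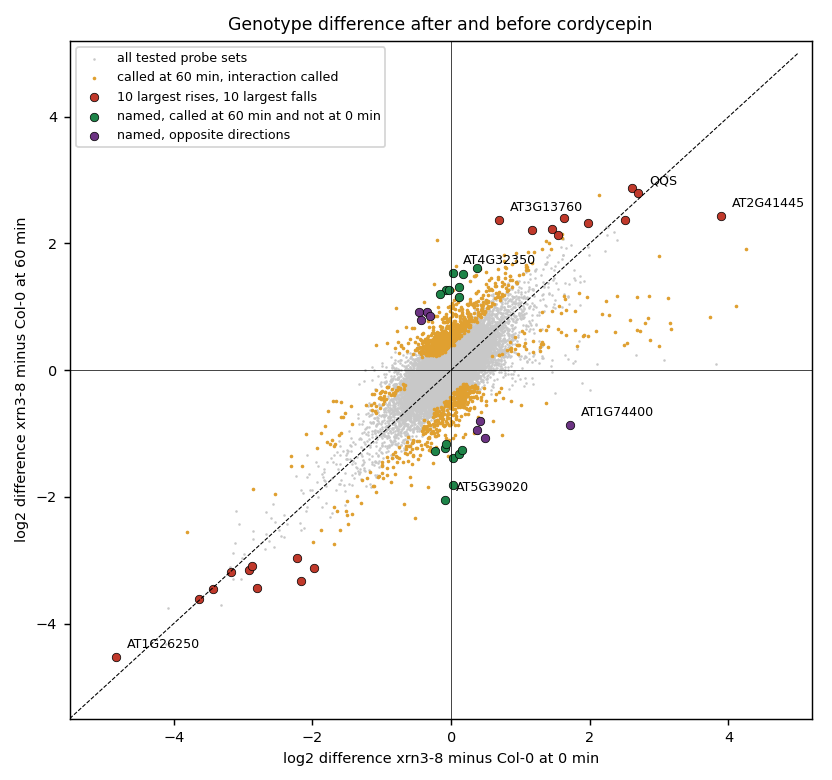
Log2 difference of xrn3-8 minus Col-0 at 60 min (vertical axis) against that at 0 min (horizontal axis) for all 22746 probe sets in grey. Orange points were called at 60 min with the interaction called, larger points are named genes, and the dashed line marks equal differences; AT1G26250 lies near the line, AT5G39020 and AT4G32350 lie near 0 on the horizontal axis, and AT1G74400 has opposite signs.

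The 8 largest rises that were called after cordycepin and not before it had lower means at 60 min than at 0 min in both genotypes, and the distance was greater in Col-0. AT5G37670, a small heat shock protein, had 5.18, 5.10 and 5.14 in xrn3-8 at 60 min and 3.21, 3.50 and 3.86 in Col-0, a difference of 1.62 (SE 0.17, adjusted p = 1.37e-06). AT4G32350, of the IST1 family of endosomal sorting proteins, had 6.41, 6.51 and 6.70 in xrn3-8 at 60 min and 5.05, 5.07 and 4.89 in Col-0. At 0 min AT4G32350 had 7.56, 7.64 and 7.89 in xrn3-8 and 7.60, 7.85 and 7.58 in Col-0, where the groups overlapped. The mean at 60 min minus that at 0 min was thus -1.16 in xrn3-8 and -2.67 in Col-0, and the interaction was 1.52 (SE 0.15, adjusted p = 1.33e-05).

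AT3G06070 had the largest such distances, with a mean at 60 min minus that at 0 min of -2.93 in xrn3-8 and -4.14 in Col-0, and a genotype difference of 1.31 at 60 min. The small heat shock protein AT1G54050 had 8.69, 8.54 and 8.51 in xrn3-8 at 60 min and 7.29, 7.57 and 7.27 in Col-0, against 8.45, 8.92 and 9.11 in xrn3-8 and 8.91, 8.98 and 9.07 in Col-0 at 0 min. The remaining genes of this class were the calcium-binding AT1G21550 (1.52), AT3G25400 (1.27), AT5G24570 (1.26) and AT5G40340 (1.15). At 0 min their differences lay between -0.08 and 0.17.

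Among the 8 largest falls of the same kind, 7 had a higher mean at 60 min than at 0 min in Col-0. AT5G39020, a receptor-like kinase of the malectin type, had 4.47, 4.58 and 4.50 in xrn3-8 at 60 min and 6.54, 6.60 and 6.56 in Col-0, a difference of -2.05 (SE 0.10, adjusted p = 2.63e-10). Its xrn3-8 signals at 0 min were 4.42, 4.46 and 4.54, and its Col-0 signals were 4.68, 4.29 and 4.72. The mean at 60 min minus that at 0 min was 0.04 in xrn3-8 and 2.0 in Col-0, and the interaction was -1.96 (SE 0.14, adjusted p = 4.11e-07).

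AT5G54040 likewise had a higher Col-0 mean at 60 min, with 3.82, 3.47 and 3.84 in xrn3-8 and 5.50, 5.53 and 5.52 in Col-0 (difference -1.81). AT5G22540 (-1.39), AT2G32030, an acetyltransferase (-1.32), AT5G38030, a MATE efflux protein (-1.28), AT3G26460 (-1.26) and the amino acid transporter AT1G25530 (-1.23) did too. In xrn3-8 the mean at 60 min minus that at 0 min was -0.75 for AT2G32030 and -0.41 for AT5G54040. For AT5G22540, AT5G38030, AT3G26460 and AT1G25530 it lay between -0.20 and 0.29. For AT2G32030 the Col-0 value was 0.69. AT5G14700 (-1.16) was the exception, with a lower Col-0 mean at 60 min. Its mean at 60 min minus that at 0 min was -1.23 in xrn3-8 and -0.15 in Col-0.

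**Figure D5:**
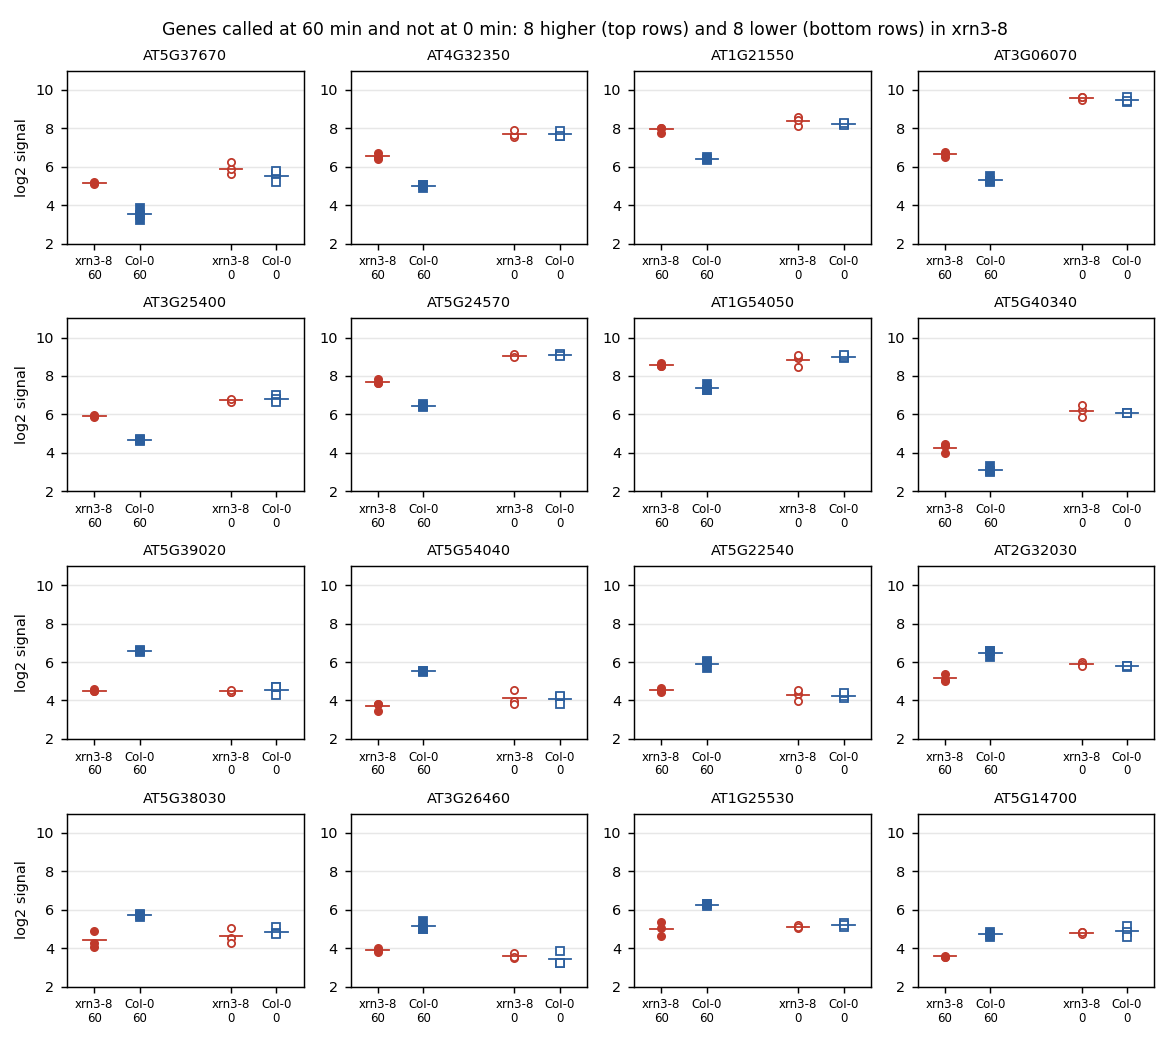
Deposited log2 signals of the 16 genes called at 60 min and not at 0 min, with the 8 higher in xrn3-8 in the upper rows and the 8 lower in the lower rows. Filled symbols are the arrays at 60 min and open symbols those at 0 min, circles are xrn3-8, squares are Col-0 and bars are means of 3 arrays; AT3G06070 shows the largest distance between times and AT5G39020 stands higher in Col-0 at 60 min alone.

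Among the 182 probe sets with opposite directions, 129 were higher in xrn3-8 after cordycepin and 53 were lower. With Bacillus subtilis centring this class held 34 higher and 107 lower probe sets, and with housekeeping centring 265 and 27. The pentatricopeptide repeat gene AT1G74400 had the largest interaction of those named, -2.58 (SE 0.15, adjusted p = 2.77e-08). It had 3.61, 3.76 and 3.60 in xrn3-8 at 60 min and 4.72, 4.46 and 4.38 in Col-0, against 4.48, 4.62 and 4.75 in xrn3-8 and 2.94, 2.76 and 2.99 in Col-0 at 0 min. The genotypes thus exchanged order, with no overlap at either time. AT1G19025 (-1.07 after, 0.49 before), AT5G47980, an acyltransferase (-0.95 after, 0.38 before), and AT4G02360 (-0.81 after, 0.42 before) ran the same way. A further probe set of AT1G19025 was not called after cordycepin (0.07, adjusted p = 0.697), and the call of AT1G19025 at 0 min was lost without replicate 1 or 2 of either genotype at that time.

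The reverse order was seen for AT1G22810, an AP2/ERF transcription factor, with 6.19, 6.15 and 6.37 in xrn3-8 at 60 min and 5.38, 5.17 and 5.39 in Col-0. At 0 min AT1G22810 had 7.45, 7.20 and 7.52 in xrn3-8 and 7.75, 7.91 and 7.90 in Col-0. The difference was 0.92 after cordycepin and -0.46 before it, with an interaction of 1.39 (SE 0.14, adjusted p = 1.56e-05). AT1G78070 (0.91 after, -0.35 before), ELC, an ESCRT subunit of endosomal sorting (0.85 after, -0.30 before), and AT2G47440 (0.79 after, -0.43 before) followed. The call at 0 min was lost under 7 alternatives for ELC and under 5 for AT1G78070, among them Bacillus subtilis centring for both.

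Several of the genes with the largest rises also changed size. AT3G13760 differed by 2.37 after cordycepin and by 0.69 before it, an interaction of 1.68 (SE 0.14, adjusted p = 2.69e-06). Its mean at 60 min minus that at 0 min was 0.09 in xrn3-8 and -1.59 in Col-0. AT2G34620 differed by 2.21 after and 1.16 before, and KICP-02 by 1.40 after and 0.27 before. AT2G41445 went the other way, with 2.44 after and 3.89 before, an interaction of -1.45 (SE 0.24, adjusted p = 0.00132). Its xrn3-8 signals were 5.22, 5.72 and 5.42 at 60 min and 6.80, 7.13 and 6.43 at 0 min, while its Col-0 signals were near background at both times. AT3G02480 likewise differed by 1.81 after and 3.0 before.

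For the class to which AT2G41445 and NRPD7 belong, 75 probe sets that were higher in xrn3-8 at both times and by less after the drug, the median of the level at 60 min minus that at 0 min was -0.91 in xrn3-8 and 0.20 in Col-0. Among the largest falls, AT5G22555 differed by -3.33 after and -2.16 before, and AT3G03670 by -3.12 after and -1.98 before. In both, the mean at 60 min was above that at 0 min by more than 1 in Col-0, and the xrn3-8 signals were near background at 60 min. AT1G26250, AT1G26390, AT3G13610, QQS and THI2.2 differed by -4.83, -3.63, -3.17, 2.70 and 2.61 before cordycepin, and their interactions were not called.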

How the data were processed

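Total RNA of seedlings was labelled with biotin as cRNA and measured on 12 Affymetrix 1-colour arrays. The deposited values are log2 signals with 2 decimals, normalized by the authors before deposition to nearly equal distributions. The method was not given in the sources used here, and affy 1.48.0 and limma 3.26.9 are named per the submitters' processing notes. Differences are therefore relative to the rest of each array, and arrays give no counting depth.

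Of 22810 probe sets, 64 controls were left out and 22746 tested. The platform table gives 13513 of these exactly 1 gene, 503 several and 8730 none, which are unnamed here. Of the 13513, 13436 matched RefSeq genes (TAIR10.1, used for names and order only). They stand for 13356 genes, 146 with several probe sets, where the one with the highest mean over 12 arrays was used. For 43 further probe sets of such genes that were called, 19 of the others were called in the same direction, 24 were not called and 0 were called in the opposite one.

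The linear model held a term for each group and all 12 arrays (limma 3.58.1 under R 4.3.3, with lmFit, then eBayes; there were 8 residual degrees of freedom, and 7.96 from the prior). It tested xrn3-8 minus Col-0 at 60 min, the same at 0 min, and their difference (interaction). All tests were two-sided, with Benjamini-Hochberg adjustment over 22746 probe sets and a threshold of 0.05. The median SE was 0.0960, and 0.136 for the interaction. On simulated data with 22746 probe sets, the fit recovered 76% of changes of 0.5, 96% of changes of 1 and 100% of changes of 2 on the log2 scale in xrn3-8 minus Col-0 after cordycepin. The simulated noise was independent between arrays, and far fewer probe sets were changed than were called in the data. These rates therefore describe the simulated setting.

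Genes were named by rule: the 10 largest rises and falls among called probe sets of 1 gene whose groups did not overlap, the next 10 each with a symbol, 8 rises and 8 falls called at 60 min alone with the interaction called, 8 in opposite directions, 6 rises and 6 falls among the brightest 5%, members of lists and measured neighbours. The members and lists were chosen with earlier results of these data known. Of 542 loci on 25 lists, 141 were measured. There were 9 more lists made by name or genome, and 7 lists had no measured gene. From the P450 list, CYP59 and CYP71 were left out as cyclophilins. Alternatives covered scaling, filters, weights, the replicate block and leaving out each array.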

Additional observations from a re-analysis of the deposited data

Results flagged for a closer look

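The genotype difference at 60 min differed from that at 0 min by the interaction test for 1830 probe sets (8.05%, limma, adjusted p under 0.05). The interaction was called for 44 of the 76 genes named by rule. Of these, the 8 rises and 8 falls called at 60 min alone and the 8 in opposite directions were named because their interaction was called. The count of 44 therefore carries no test. No test for a single array far from the others was made, because each group holds 3 arrays.

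Among genes called after cordycepin and not before it, the interaction was 1.52 for AT4G32350, 1.36 for AT1G54050, 1.35 for AT1G21550 and for AT3G25400, 1.29 for AT5G24570, 1.25 for AT5G37670, 1.21 for AT3G06070 and 1.04 for AT5G40340. On the lower side it was -1.96 for AT5G39020, -1.84 for AT5G54040, -1.44 for AT2G32030, -1.43 for AT5G22540, -1.41 for AT3G26460, -1.15 for AT1G25530, -1.08 for AT5G14700 and -1.05 for AT5G38030.

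Genes with opposite directions had interactions of -2.58 for AT1G74400, -1.57 for AT1G19025, -1.33 for AT5G47980 and -1.24 for AT4G02360, and of 1.39 for AT1G22810, 1.25 for AT1G78070, 1.22 for AT2G47440 and 1.14 for ELC.

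In genes that were also higher in xrn3-8 at 0 min, the interaction was 1.68 for AT3G13760, 1.14 for KICP-02 and for AT1G15010, 1.05 for AT2G34620, 0.77 for AT1G65490 and for AT3G21670, 0.72 for CRR42, 0.69 for AT5G24490, 0.59 for AT5G16030 and for CYP71B26, 0.48 for AOR, 0.46 for GSTU16, 0.45 for AT5G38980 and -1.45 for AT2G41445. In genes that were also lower at 0 min, it was -1.17 for AT5G22555, -1.13 for AT3G03670, -0.90 for PDF1.2, -0.80 for Prx37, -0.58 for cwINV6 and -0.45 for AT3G22240.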

How the results depend on the processing

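The difference at 60 min kept its direction and its call in the 76 genes named by rank under every alternative run for them except the minimum of 2-fold, below which some of them lie. These 76 were chosen for large called differences in the same arrays, so keeping the call was largely set by that choice. Of 142 called genes of the lists, 47 lost the call at 60 min under at least 1 alternative and 0 changed sign. Among those named above, leaving out 1 array at 60 min ended the call of AT4G17620, FY, UPF3, AT1G47400, AT5G44440, HRGP1, AT4G08410, AT4G26010, WRKY53, LCR68, IVD, AT5MAT, AT2G31790, GI, RCA, LTI30, COR15B, AT5G07580, WRKY47 and psbC. The count of 7322 became 719 with at least 2-fold differences, 3827 with probe sets of 1 gene only (fewer were tested) and 4764 with hybridization control centring. The interaction count of 1830 became 182, 1002 and 810 under the same alternatives, 771 at an adjusted p under 0.01, and 2903 with housekeeping and ribosomal protein centring. The difference at 0 min, called for 7264, was called for 592 with at least 2-fold differences and for 3774 with probe sets of 1 gene. Apart from the construction of these alternatives, the cause was not tested. Leaving out 1 array gave 6312 to 7321 calls at 60 min, 5815 to 7685 at 0 min and 1233 to 1704 interactions. The interaction call was lost under at least 1 alternative for 9 named genes (AT5G16030, AT5G38980, AT5G38030, cwINV6, Prx37, AT3G22240, CYP71B26, GSTU16 and AOR), Prx37 without replicate 2 of xrn3-8 at 0 min, and gained for 8. The call at 0 min was lost under at least 1 alternative for 7 (AT1G15010, AT1G19025, AT1G78070, AT4G02360, AT5G47980, ELC and KICP-02) and gained for 3 (AT1G21550, AT3G26460 and AT5G37670). Same-numbered arrays at 60 min of both genotypes correlated by 0.11, 0.02 and 0.12 in their deviations, and those at 0 min by 0.05, 0.04 and 0.08. Each array correlated best with its own number in the other genotype, a hint from the data, but not every value was over 0.1, so the numbers were not taken to pair the samples. Within a genotype, same-numbered arrays of 60 and 0 min correlated by -0.01, -0.04 and -0.01 in xrn3-8 and by -0.09, 0.02 and 0.07 in Col-0. The replicate block gave 7488 calls at 60 min, 7426 at 0 min and 1940 interactions. This block holds 1 effect for each number over all groups, so a pairing within 1 time alone was not modelled. Signals near background limit the size of differences.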

Other observations

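Of the 7322 probe sets called after cordycepin, 3406 are not paired with exactly 1 gene here. They hold both extremes of the comparison, at -5.22 and 3.07 on the log2 scale for xrn3-8 minus Col-0.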
